A study of Homo sapiens with 6 samples.

Results

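Serpins are a family of protease inhibitors with a common fold, and the analysis followed every human serpin gene that the deposited RNA-seq table of A549 cells carries under a family symbol. Rows were taken where the gene was listed as protein-coding and its symbol began with SERPIN followed by a clade letter from A to I and a number, which gave 34 of the 58174 genes of the table, of which 33 are described. The other 8 rows with a SERPIN symbol, pseudogenes and non-coding RNAs, were not counted as members. The study compared parental A549 cells (Ctrl, 3 libraries) with A549 cells from which the MIR21 gene had been deleted (MIR21-KO, 3 libraries). A549 is a long-established human line from a lung carcinoma. All cells were cultured alike in serum-supplemented medium and harvested 48 h after seeding, and no further agent was applied to either group. MIR21-KO cells had been derived from single sorted cells after Cas9 was directed to MIR21 by paired guides, and Ctrl cells were the uncloned parental line, so that clonal differences and effects of the deletion cannot be told apart. The number of clones sampled by the MIR21-KO group is not given, nor whether replicates were separate cultures, and p-values measure only the spread between these libraries, which may be technical.

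An inhibitory serpin offers a reactive loop to its target protease as bait. Cleavage of the loop snaps the inhibitor into a new conformation that drags the protease along and traps it in a covalent complex, so each molecule works a single time. Some members have lost this activity and act as hormone carriers, chaperones or signaling proteins. Clade A holds liver-secreted plasma proteins such as alpha-antitrypsin, and clade B holds inhibitors that mostly stay inside the cell and guard it against its own or incoming proteases. Serpins secreted by carcinoma cells are known for their part in pericellular proteolysis, adhesion and migration. The deleted microRNA acts on mRNAs that pair with its seed (bases 2 to 8), usually through sites in the 3′ untranslated region (UTR), and lowers their level or translation.

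The mature miR-21-5p is shown with its seed in capitals because the sites in serpin mRNAs are described against it. The sequence is from RefSeq (GRCh38.p14, chr17:59841273-59841294, plus strand).
hsa-miR-21-5p: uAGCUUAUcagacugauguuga
The heptamer ATAAGCT pairs with the whole seed, the 8mer ATAAGCTA carries an additional A, and the hexamer TAAGCT pairs with its first 6 bases. A hexamer followed by A is named 7mer-A1. The longest annotated 3′ UTR (GENCODE 29, GRCh38) was read on the sense strand for each of the 31 serpin genes that have one. A hexamer was present in 8 of them (25.8%), the heptamer in 2 (6.45%) and the 8mer in 1 (3.23%). Among 11657 protein-coding genes tested for expression, 29.45% held a hexamer, 10.6% the heptamer and 2.98% the 8mer. The matches below are the family's only 8mer, its other heptamer, and its 7mer-A1 matches, in SERPINH1, SERPINI1 and SERPINA5; capitals mark the paired bases with the A that follows where present.
SERPINB5 3′ UTR, chr18:63504890-63504919, plus strand: aagttggttggATAAGCTAtccgtgttgca
SERPINA7 3′ UTR, chrX:106032842-106032871, minus strand: cttgccaatgtATAAGCTgggagtggagaa
SERPINH1 3′ UTR, chr11:75569921-75569950, plus strand: ttatagattgttTAAGCTAgaggattatct
SERPINI1 3′ UTR, chr3:167825484-167825513, plus strand: tgttatcagtatTAAGCTAatggtcctgtt
SERPINA5 3′ UTR, chr14:94592280-94592309, plus strand: gatgaagggggcTAAGCTAtggcccatctg
Of the 8 serpins with enough expression for a test, SERPINH1 alone held a hexamer (12.5%), at base 741 of a 3′ UTR of 2367 bases. SERPINB5, owner of the 8mer, had a single read in a single Ctrl library, and SERPINA7 was listed at 0 in every library. The mRNA of SERPINE2, which rose in MIR21-KO cells as described in the following, held no hexamer in the 3′ UTR searched. A letter match is a description and no record of binding.

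The 6 polyA libraries held 10631667 to 14345209 reads on genes, and levels are in FPKM (reads scaled to gene length and library size). On this scale a single read counted over 1 kb stands for 0.0731 to 0.0930 FPKM. A total of 3 reads, the limit that a count of 0 allows, correspond to 0.219 to 0.279 FPKM over that length, for counting error only. All 37 mitochondrial genes were listed at 0 in every library, so a listed 0 can come from the processing. MIR21 itself was listed at 0 in all 6 libraries, Ctrl included, and polyA libraries cannot check its deletion. VMP1, the membrane protein gene in whose 3′ part MIR21 lies, was called higher in MIR21-KO cells (75.1 ± 3.83 to 142.5 ± 7.18 FPKM, SD, n = 3, FDR 0.000473). Of 7 epithelial markers, 6 reached the filter. All 7 together summed to 1684 to 1807 FPKM in Ctrl and 1218 to 1745 FPKM in MIR21-KO. Of the 6, the adherens junction gene CDH1 was called lower (8.18 to 2.86 FPKM), and no other was called. The alveolar type II list summed to 5.39–6.15 and 7.72–8.57 FPKM with 2 of 9 markers in the filter, and the surfactant gene SFTPA1 and the lineage factor gene NKX2-1 were at 0. Fibroblast markers reached the filter for 3 of 9 genes and summed to 7.74–8.43 and 14.1–14.3 FPKM. THY1 of that list was called higher (2.28 to 7.15 FPKM). COL1A1 (3.41 to 3.91 FPKM, FDR 0.334) and LUM (2.11 to 1.88 FPKM, FDR 0.506) were not called, and the collagen gene COL1A2 was at 0. Leukocyte markers (1 of 6 genes in the filter, 3.79–4.50 and 3.64–5.60 FPKM, CD3E at 0) and endothelial markers (0 of 5, 0.0490–0.0855 and 0.0969–0.154 FPKM) were low. The part of these markers in the results on serpins was not tested. Here as in any bulk sample, fewer cells expressing a gene and less RNA per cell cannot be told apart.

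The serpin repertoire of A549 cells was narrow. Of the 33 genes, 8 averaged 0.5 FPKM or more over the 6 libraries and entered the test, 12 had fewer but some reads, and 13 were listed at 0 in every library. The tested genes were SERPINE2, SERPINH1, the clade B genes SERPINB1, SERPINB6, SERPINB8 and SERPINB9, and SERPINF1 and SERPINF2 of clade F. In MIR21-KO cells 1 of the 8, SERPINE2, was called higher and 0 lower by limma at a false discovery rate (FDR) under 0.01, adjusted over all genes tested; 4 of the 8 had an unadjusted p under 0.05, as did 6910 of the 16006 genes tested. Over all 16006 genes tested, 16.0% were called, 7.66% higher and 8.38% lower, so that 1 call among 8 lies close to the background. In 5 of the 8 genes the 3 values of each group did not overlap, against 48.1% of all genes. Their median log2 fold change was 0.18, and that of all genes was -0.02; 6 of the 8 values were positive, as were 7763 of the 16006.

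**Figure D1:**
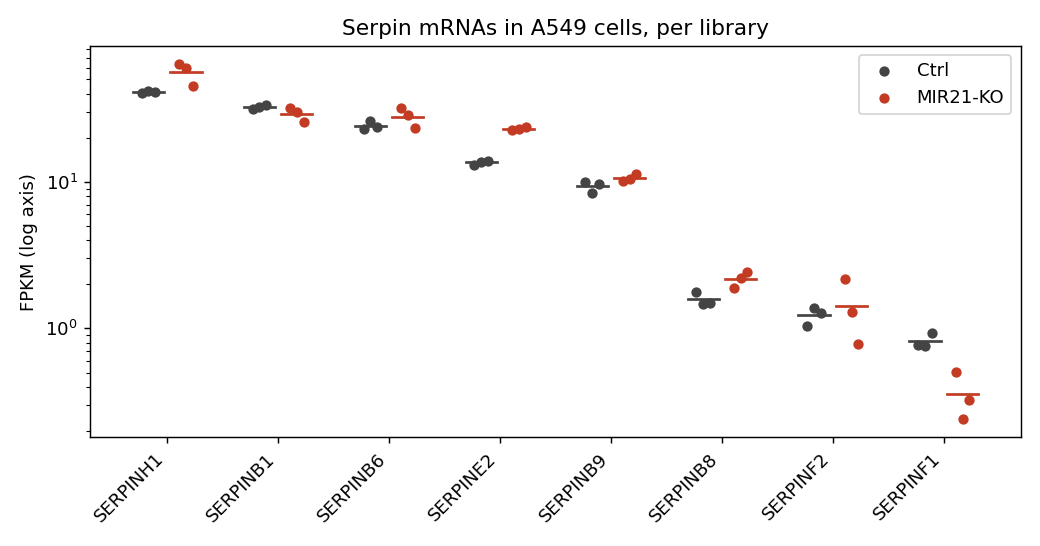
FPKM per library (log axis) of the 8 tested serpin genes, ordered by level, with Ctrl libraries in grey, MIR21-KO libraries in red and group means as lines (n = 3). Of the genes plotted SERPINH1 stands highest, at means of 41.1 and 56.1 FPKM, and the values of SERPINE2 show the groups most clearly apart relative to their spread.

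SERPINE2 encodes glia-derived nexin, an inhibitor of thrombin, urokinase and related serine proteases that is bound at the cell surface and in the matrix. SERPINE2 (ENSG00000135919, GRCh38 chr2:223975112-224039319, minus strand) stood at 13.1, 13.7 and 13.9 FPKM in Ctrl replicates and at 22.7, 22.9 and 23.6 FPKM in MIR21-KO replicates. The groups were far apart, and the values within each lay close together. It rose 1.70-fold, from 13.5 ± 0.412 to 23.1 ± 0.476 FPKM (SD, n = 3; log2 fold change 0.76 ± 0.07, SE; FDR 0.00043). The call held in all 14 other fits, with FDRs from 6.99e-05 to 0.00868. A fit with the replicate number as a block, which the libraries did not bear out as a pairing, gave the highest of these FDRs. SERPINE3, of the same clade, had 0 to 4 reads per library and lies over INTS6 on the opposite strand, a gene at a mean of 0.773 FPKM.

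SERPINE2 has a pair of annotated starts in the RefSeq promoter table (GRCh38.p14), and windows of 250 bases before to 50 bases after them are shown because their compositions differ and the gene had the smallest SE of the tested members. Capitals mark GGGCGG (GC box) and CCAAT matches, searched on both strands, so that CCGCCC and ATTGG also count.
SERPINE2 start at chr2:224038591-224038890, minus strand: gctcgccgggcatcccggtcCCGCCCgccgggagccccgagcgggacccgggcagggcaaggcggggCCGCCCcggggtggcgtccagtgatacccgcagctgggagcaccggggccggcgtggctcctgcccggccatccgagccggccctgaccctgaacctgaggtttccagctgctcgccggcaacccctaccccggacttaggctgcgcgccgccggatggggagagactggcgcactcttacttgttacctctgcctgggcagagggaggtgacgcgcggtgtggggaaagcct
SERPINE2 start at chr2:224031429-224031728, minus strand: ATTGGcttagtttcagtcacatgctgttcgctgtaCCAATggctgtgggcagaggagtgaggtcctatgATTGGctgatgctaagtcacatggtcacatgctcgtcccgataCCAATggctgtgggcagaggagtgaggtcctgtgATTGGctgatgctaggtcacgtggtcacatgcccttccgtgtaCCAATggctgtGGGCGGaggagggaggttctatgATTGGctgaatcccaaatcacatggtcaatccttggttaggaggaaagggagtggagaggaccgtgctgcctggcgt
The first window was 73.7% G or C, with 2 GC boxes and no CCAAT. The other was 54% G or C and held 7 CCAAT matches, at 250, 215, 181, 138, 104, 61 and 27 bases before the start, in alternating orientation within a repeated stretch of sequence. At least 7 matches were found in 8 of 35116 promoter windows (0.0228%), and a CCAAT match of any number in 34.6%. A GC box was present in 44.95% of windows. Which start the A549 cells used was not measured. SERPINF1 and SERPINF2 have no entry in that table.

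Summed over the 33 genes, serpin mRNA amounted to 122.2, 126.7 and 126.2 FPKM in Ctrl libraries and to 165.0, 155.4 and 132.6 FPKM in MIR21-KO libraries. All MIR21-KO sums lay above all Ctrl sums, and MIR21-KO replicate 3 was the nearest to Ctrl. The means of the sums were 125.1 ± 2.44 and 151.0 ± 16.7 FPKM (SD, n = 3). The exact permutation test (two-sided) gave p = 0.1, the smallest value that 3 against 3 libraries allow. Of the tested genes, SERPINH1 (means 41.1 and 56.1 FPKM, not called) and SERPINE2 (13.5 and 23.1 FPKM) rose most in FPKM. SERPINB1 and SERPINF1 fell, so the sum does not stand for every member. Summed FPKM of all genes was 272770, 286731 and 278896 in Ctrl and 320080, 293279 and 265001 in MIR21-KO.

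SERPINH1 encodes the collagen-specific chaperone of the endoplasmic reticulum (ER), a serpin without inhibitory activity. SERPINH1 (ENSG00000149257, GRCh38 chr11:75562056-75572783, plus strand) stood at 40.5, 41.8 and 40.9 FPKM in Ctrl and at 63.9, 59.3 and 45.1 FPKM in MIR21-KO libraries. All MIR21-KO libraries were above all Ctrl libraries, but replicate 3 was close to them. The mean was 41.1 ± 0.645 FPKM in Ctrl and 56.1 ± 9.78 FPKM in MIR21-KO (SD, n = 3), and the log2 fold change of 0.43 ± 0.13 (SE) did not pass the test (FDR 0.0468). Leaving out any library other than MIR21-KO replicate 3 gave log2 fold changes of 0.33 to 0.44, and none passed (FDR 0.0878 to 0.153). Without MIR21-KO replicate 3 the log2 fold change was 0.58 ± 0.06 and passed (FDR 0.0013), and calls over all genes rose from 2568 to 3418. That library had the lowest summed FPKM of all genes (265001, against 320080 in MIR21-KO replicate 1) and was the lowest of its group for 4 of the 8 serpins and for 43.4% of all genes tested, as MIR21-KO replicate 1 was for 3 of the 8 and for 38.4%. Its part in the result was not tested beyond leaving it out.

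The first SERPINH1 start window of RefSeq (GRCh38.p14) is shown for its match to the heat shock element GAANNTTC (both strands, capitals), the motif by which chaperone genes are known to be induced.
SERPINH1 start at chr11:75562003-75562302, plus strand: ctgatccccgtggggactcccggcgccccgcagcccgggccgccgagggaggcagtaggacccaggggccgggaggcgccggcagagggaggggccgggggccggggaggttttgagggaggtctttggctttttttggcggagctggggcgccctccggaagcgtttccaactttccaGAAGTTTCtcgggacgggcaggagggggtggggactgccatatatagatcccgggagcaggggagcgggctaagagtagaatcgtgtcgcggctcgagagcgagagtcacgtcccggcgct
The match lies 71 bases before the start. The motif occurs in 6.77% of the 35116 windows, and a downstream SERPINH1 start window (chr11:75562223-75562522) held none.

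A list around genes that fold and modify collagen in the ER or process it after secretion was counted beside SERPINH1. It also held other genes, such as HSPA5, HSP90B1, SEC23A and KDELR2. Of the 35 genes listed 30 were tested, 9 were called higher and 1 lower (7.66% and 8.38% of all genes). The median log2 fold change was 0.26. P4HA3, a collagen prolyl hydroxylase subunit, rose from 5.08 ± 0.485 to 28.6 ± 0.415 FPKM (SD, n = 3; log2 fold change 2.48, FDR 2.5e-05). ADAMTS14, which removes collagen propeptides, rose from 0.0671 ± 0.0324 to 2.18 ± 0.31 FPKM (FDR 0.000465) and passed the filter only through MIR21-KO. PCOLCE2, an enhancer of propeptide cleavage, rose from 5.97 ± 0.707 to 14.01 ± 0.934 FPKM (FDR 0.000554). TMEM38B, an ER cation channel, was the only one called lower (5.18 ± 0.55 to 2.40 ± 0.304 FPKM, FDR 0.00201), and that call was lost without Ctrl replicate 1, Ctrl replicate 2 or MIR21-KO replicate 2. The abundant P4HB (200.6 ± 4.82 and 228.9 ± 30.7 FPKM, FDR 0.266) and PPIB (329.97 ± 25.0 and 381.5 ± 77.6 FPKM, FDR 0.396), which act as prolyl hydroxylase subunit and prolyl isomerase, did not pass, and MIR21-KO replicate 3 was again the lowest of its group for each. The count of called genes was 4 without Ctrl replicate 2 and 5 without Ctrl replicate 1, Ctrl replicate 3 or MIR21-KO replicate 2. Calls over all genes also fell in these fits, from 2568 to 933, 918, 889 and 784 in that order.

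The tested clade B genes encode intracellular protease inhibitors, and none of the 4 was called. SERPINB1, SERPINB9 and SERPINB6 lie side by side on chromosome 6 (GRCh38 chr6:2832332-2972165, 140 kb) and were all expressed. SERPINB1 (ENSG00000021355), an inhibitor of neutrophil elastase and cathepsin G, stood at 31.6, 32.4 and 33.4 FPKM in Ctrl and at 31.6, 29.9 and 25.5 FPKM in MIR21-KO. The groups overlapped narrowly at MIR21-KO replicate 1, and the log2 fold change was -0.17 ± 0.10 (SE, FDR 0.227). SERPINB6 (ENSG00000124570), an inhibitor of cathepsin G and trypsin-like proteases, stood at 22.8, 25.9 and 23.8 FPKM in Ctrl and at 31.6, 28.4 and 23.1 FPKM in MIR21-KO. MIR21-KO replicate 3 fell within the Ctrl range, and the log2 fold change was 0.19 ± 0.12 (SE, FDR 0.292). SERPINB9 (ENSG00000170542), the granzyme B inhibitor, stood at 10.0, 8.44 and 9.69 FPKM in Ctrl and at 10.2, 10.4 and 11.3 FPKM in MIR21-KO. The groups were separate by a narrow margin, and the log2 fold change was 0.18 ± 0.09 (SE, FDR 0.191).

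SERPINB8 (ENSG00000166401, GRCh38 chr18:63969925-64019779), an inhibitor of the proprotein convertase furin, was the only expressed gene of the clade B cluster on chromosome 18. It stood at 1.77, 1.47 and 1.495 FPKM in Ctrl and at 1.89, 2.20 and 2.44 FPKM in MIR21-KO, on 93 to 186 reads per library. All MIR21-KO libraries lay above all Ctrl libraries, and the log2 fold change of 0.44 ± 0.16 (SE) had an FDR of 0.0731. An antisense gene, AC009802.1 (mean 0.181 FPKM), overlaps it; the strand setting of the counting is not stated. FURIN, named here after its values were seen, rose from 14.8 ± 0.0277 to 29.4 ± 1.39 FPKM (SD, n = 3; log2 fold change 0.99, FDR 0.000202).

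Cathepsins and legumain are proteases of the lysosome, most of them cysteine proteases, and some of them are inhibited by clade B serpins. Of 15 such genes, among them the serine carboxypeptidase CTSA and the aspartic proteases CTSD and CTSE, 13 were tested, 7 were called higher (CTSA included) and 0 lower, against 7.66% higher and 8.38% lower over all genes. The median log2 fold change was 0.66. Legumain (LGMN), which also activates cathepsins, rose from 14.9 ± 0.68 to 45.4 ± 4.09 FPKM (SD, n = 3, FDR 9.89e-05). CTSH, an aminopeptidase, rose from 3.15 ± 0.0354 to 9.80 ± 1.43 FPKM (FDR 0.000308). CTSO rose from 0.413 ± 0.142 to 1.69 ± 0.112 FPKM (FDR 0.00276), a call lost without Ctrl replicate 2 or MIR21-KO replicate 2, and passed the filter through MIR21-KO. The abundant CTSL (113.2 ± 7.93 to 183.5 ± 26.7 FPKM, FDR 0.00775) and CTSB (60.7 ± 2.03 to 92.6 ± 11.7 FPKM, FDR 0.00667) rose by less. The calls of both were lost without any 1 Ctrl library or without MIR21-KO replicate 2, and that of CTSL also without MIR21-KO replicate 1. The list kept 2 calls when Ctrl replicate 2 or MIR21-KO replicate 2 was left out, and 3 without Ctrl replicate 1 or 3. Calls over all genes also fell in these fits, from 2568 to 933, 784, 918 and 889 in that order.

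**Figure D2:**
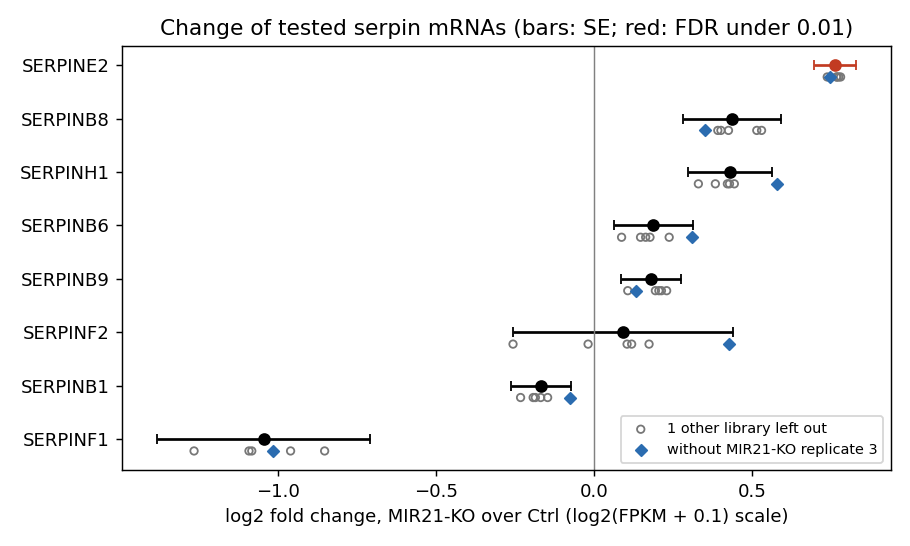
Log2 fold change (MIR21-KO over Ctrl, log2(FPKM + 0.1) scale) of the 8 tested serpins with SE bars, red for FDR under 0.01, and below each the values with 1 library left out, the blue diamond marking the fit without MIR21-KO replicate 3. SERPINE2 stays within 0.74 to 0.78 in every fit shown, whereas SERPINF2 lies on either side of 0.

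The clade F genes are neighbors on chromosome 17 and were low. SERPINF1 averaged 0.587 FPKM, at the margin of the filter, and SERPINF2 averaged 1.33 FPKM. SERPINF1 (ENSG00000132386, GRCh38 chr17:1761959-1777574) encodes pigment epithelium-derived factor, a non-inhibitory serpin known for opposing vessel growth. It stood at 0.768, 0.757 and 0.929 FPKM in Ctrl (30, 25 and 39 reads) and at 0.502, 0.240 and 0.327 FPKM in MIR21-KO (21, 9 and 13 reads). The groups were separate, but the log2 fold change of -1.04 ± 0.34 (SE) had an FDR of 0.0546, and the gene passed the filter through Ctrl. SERPINF2 (ENSG00000167711, GRCh38 chr17:1742836-1755268) encodes antiplasmin, the plasma inhibitor of plasmin. It stood at 1.04, 1.39 and 1.28 FPKM in Ctrl and at 2.19, 1.29 and 0.788 FPKM in MIR21-KO and had the largest SE of the tested members, with MIR21-KO libraries on both sides of Ctrl. Its log2 fold change of 0.09 ± 0.35 (SE, FDR 0.863) turned to -0.26 without MIR21-KO replicate 1 and to -0.02 without Ctrl replicate 1, and was 0.43 when MIR21-KO replicate 3 was left out.

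The other 25 members were below 0.5 FPKM, with at most 12 reads in a library, and their loci were largely without reads. In the clade A cluster on chromosome 14 (GRCh38 chr14:94280455-94624055, 344 kb) 0 of 9 genes entered the test and 5 were listed at 0 throughout. In the clade B cluster on chromosome 18 (GRCh38 chr18:63476761-64019779, 543 kb) 6 of 10 genes, among them the squamous cell carcinoma antigen genes SERPINB3 and SERPINB4, were listed at 0 throughout. All 10 clade A genes, and the single genes SERPINC1 (antithrombin), SERPIND1 (heparin cofactor) and SERPING1 (the complement inhibitor), were below the filter, as were all 10 hepatocyte secretory markers (summed level 0.403 to 0.636 FPKM in Ctrl and 0.0347 to 0.0604 FPKM in MIR21-KO, APOB at 0). SERPIND1 lies within PI4KA, read on the opposite strand at a mean of 5.10 FPKM, and had 0 to 3 reads.

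Among the low members, 3 had more than 3 reads in every library of a group. SERPINA6, which encodes the cortisol carrier of plasma, had 5, 10 and 9 reads in Ctrl and 0, 0 and 1 in MIR21-KO. SERPINI1, which encodes the neuronal inhibitor neuroserpin and holds a 7mer-A1 match, had 7, 5 and 6 reads in Ctrl and 1, 2 and 0 in MIR21-KO. SERPINA5, the inhibitor of activated protein C, also holds a 7mer-A1 match and had 3, 1 and 3 reads in Ctrl and 6, 4 and 4 in MIR21-KO. SERPINA1 (alpha-antitrypsin), named after its values were seen, holds a hexamer and had 0, 0 and 1 reads in Ctrl and 3, 4 and 12 in MIR21-KO. These genes were chosen by their reads in 1 group or after their values were seen, so nothing is read from the separation of their groups. When all genes entered the fit, the FDRs were 0.0191 for SERPINA6, 0.0648 for SERPINI1, 0.143 for SERPINA1 and 0.466 for SERPINA5, and no member below the filter was called. AGT, the angiotensinogen gene and a serpin by descent without the symbol, had 1, 0 and 2 reads in Ctrl and 2, 10 and 4 in MIR21-KO and stayed below the filter.

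**Figure D3:**
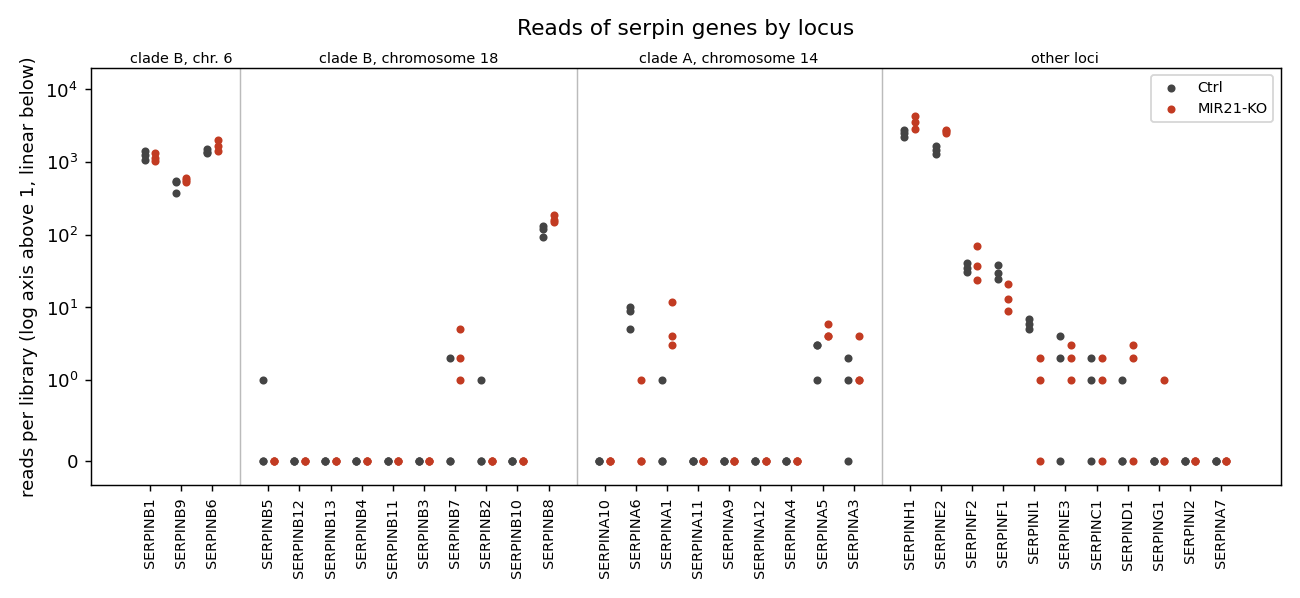
Reads per library (log axis above 1, linear below) of 33 serpin genes in order of locus, Ctrl in grey and MIR21-KO in red. The 3 genes of the chromosome 6 cluster carry 374 to 2038 reads per library, whereas the chromosome 18 and 14 clusters hold at most 12 reads per library except SERPINB8.

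Serine proteases of coagulation, fibrinolysis, complement and the secretory pathway include the classical targets of serpins. Of 53 genes listed, all proteases but the cofactor gene F3 (tissue factor), 12 were tested, F3 among them. Of these, 6 were called higher and 1 lower, against 7.66% and 8.38% of all genes, F3 was not called (FDR 0.34), and the median log2 fold change was 0.67. The secreted protease HTRA1 rose 4.91-fold, from 36.2 ± 1.98 to 179.2 ± 24.5 FPKM (SD, n = 3, FDR 7.51e-05). The complement proteases C1R (13.4 ± 0.492 to 49.6 ± 9.87 FPKM, FDR 0.000315) and C1S (18.5 ± 1.3 to 62.8 ± 4.84 FPKM, FDR 7.88e-05), targets of the SERPING1 product, rose 3.64-fold and 3.38-fold. SERPING1 itself had a single read in all 6 libraries together. PLAT, which encodes tissue plasminogen activator, was low and rose 3.08-fold, from 1.33 ± 0.11 to 4.31 ± 0.324 FPKM (SD, n = 3, FDR 0.000295). PLAU, which encodes urokinase, a target of the SERPINE2 product, stood at 88.8, 88.0 and 85.4 FPKM in Ctrl and at 115.0, 114.5 and 105.9 FPKM in MIR21-KO (log2 fold change 0.35 ± 0.07, SE). The groups did not overlap, but the FDR of 0.0119 missed the threshold. PLAU was called in 1 of 6 fits with a library left out, that without MIR21-KO replicate 3 (FDR 0.00337). The highest FDR of the 6 fits was 0.0666. Calls over all genes also rose without MIR21-KO replicate 3, from 2568 to 3418. PRSS3, a trypsinogen gene, fell from 2.24 ± 0.391 to 0.337 ± 0.132 FPKM (log2 fold change -2.45, FDR 0.00132), a call lost without Ctrl replicate 2 (FDR 0.0101). It had 5 to 11 reads per MIR21-KO library and passed the filter only through Ctrl.

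A list around cofactors that direct serpins and receptors that clear serpin complexes also held other genes, such as EXT1, NDST1, LMAN1 and PNPLA2. Of its 31 genes 25 were tested and 9 were called, 8 higher and 1 lower. Over all genes 16.0% were called, 7.66% higher and 8.38% lower. The list's median log2 fold change was 0.38. The integrin subunit gene ITGB3, part of the vitronectin receptor, rose 11.2-fold, from 1.23 ± 0.105 to 14.9 ± 2.67 FPKM (SD, n = 3, FDR 4.93e-05). VTN, which encodes vitronectin, an adhesive protein of plasma and matrix, stood at 4.53, 3.52 and 5.00 FPKM in Ctrl and at 16.3, 13.6 and 10.3 FPKM in MIR21-KO. All 3 MIR21-KO libraries were above Ctrl, and the 3.005-fold rise (FDR 0.00192) was not called without Ctrl replicate 1 or MIR21-KO replicate 2. THBD, the thrombin receptor thrombomodulin, rose from 8.11 ± 0.223 to 20.5 ± 1.63 FPKM (FDR 0.000145). PROCR, the receptor of protein C, fell from 47.2 ± 1.48 to 23.2 ± 3.39 FPKM (FDR 0.00123). The urokinase receptor gene PLAUR (8.07 ± 0.461 to 13.3 ± 2.28 FPKM, FDR 0.00874) and LRP1, the endocytic receptor of serpin complexes (3.59 ± 0.282 to 6.78 ± 1.13 FPKM, FDR 0.00466), rose. The calls of PLAUR and LRP1 were lost without any 1 Ctrl library or without MIR21-KO replicate 2, and that of PLAUR also without MIR21-KO replicate 1. The list kept 4 calls when Ctrl replicate 1 or MIR21-KO replicate 2 was left out, and 5 without Ctrl replicate 2 or 3. Calls over all genes also fell in these fits, from 2568 to 918, 784, 933 and 889 in that order.

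Proteases are also inhibited by other families, such as Kunitz-type inhibitors, tissue inhibitors of metalloproteases and cystatins. Of 49 genes for inhibitors outside the serpin family 20 were tested, 5 were called higher and 2 lower, beside 7.66% and 8.38% of all genes, and the median log2 fold change was 0.23. TFPI2, a Kunitz-type inhibitor of plasmin and trypsin in the matrix, rose 3.51-fold, from 41.8 ± 0.767 to 146.8 ± 4.93 FPKM (SD, n = 3, FDR 3.2e-05). The metalloprotease inhibitors TIMP2 (47.1 ± 2.0 to 142.5 ± 12.4 FPKM, FDR 0.000107) and RECK (1.68 ± 0.128 to 5.32 ± 0.615 FPKM, FDR 0.000337) rose 3.01-fold and 3.04-fold. TIMP1 (79.4 ± 4.19 and 117.0 ± 29.8 FPKM, FDR 0.0673) did not pass. With a library left out it was called only without MIR21-KO replicate 3 (FDR 0.00487), and the FDR reached 0.172 in the other such fits. SPINT2, a Kunitz-type inhibitor of the epithelial surface, fell from 60.0 ± 4.26 to 27.0 ± 5.2 FPKM (FDR 0.00193), a call lost without Ctrl replicate 2, Ctrl replicate 3 or MIR21-KO replicate 2. BIRC5, which encodes survivin and is known mainly for its role in cell division, fell from 70.8 ± 2.68 to 45.3 ± 6.16 FPKM (FDR 0.00542), a call lost without any 1 Ctrl library or without MIR21-KO replicate 2. SPINT1 stayed below the filter, and SLPI, the leukocyte protease inhibitor of mucosa, rested on 2 to 9 reads (FDR 0.84). The list kept 4 calls without Ctrl replicate 2, Ctrl replicate 3 or MIR21-KO replicate 2, and leaving out MIR21-KO replicate 3 gave 12. Calls over all genes moved in the same directions, though not in proportion, from 2568 to 933, 889, 784 and 3418 in that order.

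**Figure D4:**
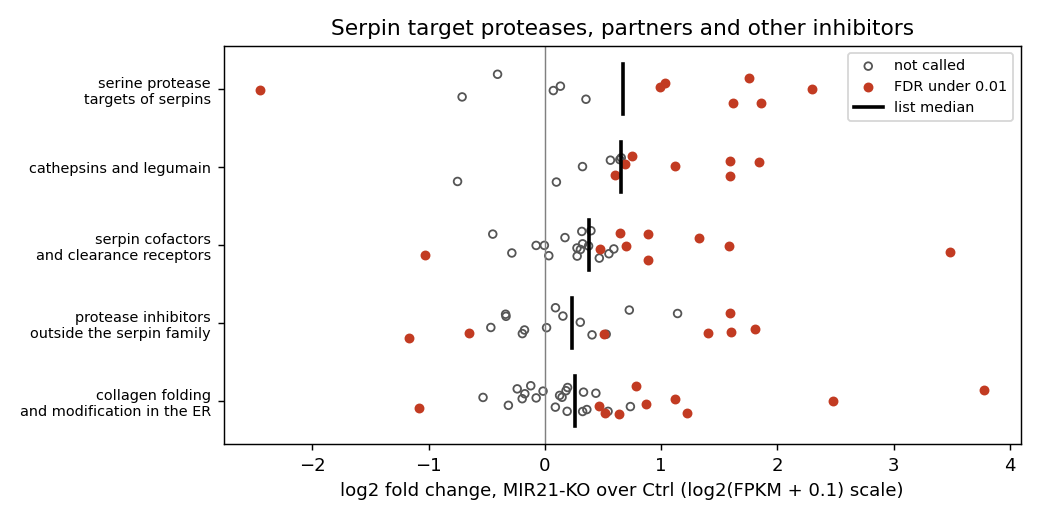
Log2 fold change (MIR21-KO over Ctrl, log2(FPKM + 0.1) scale) of the tested genes of the 5 lists around the serpins, filled for FDR under 0.01 and open otherwise, with the list median as a line. List medians lie between 0.23 and 0.67, against -0.02 for all genes tested, which include non-coding ones. The lists were chosen with earlier results of these data known, so this contrast is a description only.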

How the data were processed

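PolyA-enriched, strand-specific RNA-seq of A549 cells was analysed for 3 Ctrl and 3 MIR21-KO libraries, grouped by sample titles. The authors deposited 1 table of 58174 genes with gene length, FPKM per library and their own log2 fold changes, p-values and FDRs. The latter hold the study's comparison and were not used. The submitters' processing notes name cutadapt 1.14, HISAT2 2.1.0, SAMtools 1.5, featureCounts 1.5.3, edgeR 3.18.1 and the build hg38. The handling of multi-mapping reads, which could split near-identical genes such as SERPINB3 and SERPINB4, and the strand setting are not given in the sources used here. FPKM times length gave whole multiples of 1 step per library for 100% of values (tolerance 0.001 reads), so reads were recovered. They totalled 10631667 to 14345209 per library. Implied library sizes were 0.950 to 1.03 times these totals, so the authors had applied a scaling.

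The 16006 genes averaging 0.5 FPKM or more were fitted as log2(FPKM + 0.1) by limma 3.58.1 under R 4.3.3 (eBayes, trend and robust fitting, no covariate, two-sided, Benjamini-Hochberg over all genes, called at an FDR under 0.01). Fold changes on this scale understate changes of low genes. The fit was tested on data simulated with the same scatter between libraries in both groups. Real MIR21-KO libraries differed more among themselves (chi-square per degree of freedom 7.05 to 29.6) than Ctrl libraries (2.58 to 4.91). The simulation therefore cannot show how the fit performs at this unequal spread. Alternatives were a replicate block, each library left out, other filters and pseudocounts, median-ratio scaling, a plain fit, voom on recovered reads and an FDR under 0.05. No 2 libraries agreed within counting noise (chi-square per degree of freedom of at least 2.58).

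Same-numbered libraries did not deviate together (correlations -0.171, -0.0177 and -0.0174), so replicate numbers were not taken as pairs. Members, gene lists and tests were chosen with earlier results of these data known. Of the members, 1 stayed in the fit but is not reported here. All others with at least 0.5 FPKM were named, and below it those with over 3 reads in every library of a group. From each list the called genes with the 3 largest positive and negative changes were named, besides PLAU, PLAT, PLAUR, LRP1, VTN, CTSL, CTSB, TIMP1, SPINT1, SPINT2, SLPI, P4HB, PPIB, AGT, VMP1 and MIR21. Gene positions and 3′ UTRs came from GENCODE 29 (GRCh38), which matched 57836 gene identifiers. Promoter windows (6 of the 8 tested serpins) and miR-21-5p came from RefSeq tables (GRCh38.p14). Plots were made in matplotlib 3.10.9 (Python 3.11.15).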

Additional observations from a re-analysis of the deposited data

How the results depend on the processing

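SERPINE2 was called in all 14 alternatives. With the replicate block 651 genes were called instead of 2568. The calls of 1 serpin and of 7 genes in the serine protease list were as many as before. The other lists had 2 cathepsins, 5 cofactors and receptors, 4 inhibitors of other families and 4 collagen genes. Since the replicate numbers do not pair the libraries, the lost calls were not read as weaker effects. At an FDR under 0.05, 5114 genes, 2 serpins (SERPINH1 was added), 16 cofactors and receptors and 17 collagen genes were called. With no filter 5 cofactors and receptors were called, and voom on recovered reads called 3496 genes. With 1 library left out, calls ranged from 784 (without MIR21-KO replicate 2) to 3418 (without MIR21-KO replicate 3) genes. Ranges were 1 to 2 for serpins and 6 to 8 for the serine protease list. They were 2 to 10 for cathepsins, 4 to 13 for cofactors and receptors, 4 to 12 for other inhibitors and 4 to 15 for collagen genes. Without Ctrl replicate 1, 2 or 3 the number of genes called was 918, 933 or 889. At an FDR under 0.01, SERPINH1 was called only without MIR21-KO replicate 3. SERPINF2 reversed to -0.02 without Ctrl replicate 1 and to -0.26 without MIR21-KO replicate 1, and was 0.43 at most (without MIR21-KO replicate 3). The causes were not tested, and the fits that left a library out also had fewer samples. A filter at a mean of 2 FPKM left no value for SERPINB8, SERPINF1 and SERPINF2. Median-ratio scaling moved the median of all genes by -0.006 on the log2 scale. Depth limits the 25 low members, whose differences of a few reads could not be tested firmly.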

Other observations

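Among the 8 SERPIN rows that are not protein-coding, SERPINB9P1, listed as a long intergenic non-coding RNA, had 7, 1 and 7 reads in Ctrl and 19, 11 and 11 in MIR21-KO. These correspond to 0.377, 0.0637 and 0.351 FPKM in Ctrl and to 0.955, 0.615 and 0.581 FPKM in MIR21-KO. The groups did not overlap, but its mean of 0.49 FPKM lies just below the filter, and reads shared with SERPINB9 or its other relatives are uncertain. SERPINH1P1 had 0, 5 and 0 reads in Ctrl and 1, 0 and 0 in MIR21-KO, and the other 6 rows were listed at 0.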
